A study of Mus musculus with 6 samples.

Results

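The comparison described here is that of macrophages sorted from the mesenteric adipose tissue 7 d after the injection of ID8 cells (MY 7d) with those of naive mesentery (MY 0h). It took in the genes whose deposited expression value was at least 10 in MY 0h, in MY 7d or in both. Values are FPKM, that is, fragments of RNA scaled to gene length and to the aligned reads of the library. Of the 23946 genes in the table, 6806 (28.4%) met this rule. A total of 6062 reached the level in both libraries, 367 reached it in MY 0h only and 377 in MY 7d only. Just inside the limit stood Utp14a, with a higher value of 10.0009, and just outside it Tspyl2, with 9.99937.

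The study sequenced RNA of macrophages from the omentum (OM) and the mesentery (MY) of C57BL/6 mice, naive and at 24 h and 7 d after ID8, and asked how these cells differ between the tissues and change as the cancer cells settle. ID8 cells are ovarian cancer cells of C57BL/6 origin, injected into the peritoneal cavity, so that hosts and cancer cells share a strain and the hosts are immunocompetent. MY 0h came from naive C57BL/6 mice labelled Normal and MY 7d from C57BL/6 mice 7 d after ID8. No genetic change was made in either group, and the methods describe young adult females. The cells were gated as CD45+CD11b+F4/80+, and tissue from 3 mice went into a group of the design, a number the methods state for omenta. Each of the 6 conditions had 1 library. The spread between replicates is therefore unknown, no p-values are given, and a difference describes the 2 libraries that were compared.

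The mesentery carries vessels, lymphatics and fat to the gut, and its adipose tissue holds macrophages beside dendritic cells, lymphocytes and natural killer cells. Macrophages take up debris, present antigen on MHC class II and release chemokines. Neutrophils are short-lived phagocytes whose antimicrobial granule proteins are transcribed mainly while the cells mature in the bone marrow, and natural killer cells are innate lymphocytes that kill target cells with perforin and granzymes.

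The genes behind the gate were present in both libraries. Ptprc, which encodes CD45, had an FPKM of 188 in MY 0h and 208 in MY 7d. Itgam, which encodes CD11b, had 32.6 and 27.8, and Emr1, which encodes F4/80, had 20.5 and 37.5. Of 20 core macrophage genes, 16 were among the genes compared, with FPKM such as 2968 and 2571 for the lysozyme gene Lyz2. Lymphoid genes stood above Emr1 in the same libraries. The granzyme gene Gzma had an FPKM of 1092 in MY 0h and 449 in MY 7d. Cd3e, a T cell receptor component, had 237 and 256, and Cd79a, a B cell receptor component, had 336 and 635. FPKM are scaled by gene length, so these levels can be set beside each other. The libraries thus carried macrophage RNA together with RNA of genes that define natural killer, T and B cells, and the label macrophages is used below for the gate. The markers of epithelium and of pancreatic acini had no member at an FPKM of 10, and those of endothelium, fibroblasts and mesothelium had 2, 2 and 3 members.

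Differences are given as MY 7d minus MY 0h on the log2(FPKM + 1) scale, where the added 1 makes changes of low genes look smaller than they are, and folds are ratios of FPKM. A difference of at least 2-fold on the log2(FPKM + 1) scale is written as a rise or a fall. By this measure 35 genes (0.514%) rose and 179 (2.63%) fell. The median difference over all 6806 genes was 0.07, with quartiles of -0.19 and 0.28, so most genes moved little and the falls outnumbered the rises. At 4-fold there were 6 rises and 33 falls, and at 8-fold 4 rises and 21 falls. A gene that reached an FPKM of 10 in only 1 of the libraries had to differ between them, and 95 of the falls and 14 of the rises were of this kind. Among the 6062 genes at 10 or more in both, 21 (0.346%) rose and 84 (1.39%) fell. At the edge of the 2-fold limit, Stap2 stood just inside it, with an FPKM of 28.5 in MY 0h and 13.7 in MY 7d, and Klrk1, a natural killer receptor gene, just outside it, with 58.6 and 28.9. The FPKM of MY 0h summed to 526887 and those of MY 7d to 536503. The commonest ratio of low values put the depth of MY 7d at about 1.28 times that of MY 0h, an estimate from 1151 genes, of which 47 shared the commonest value, and the read count behind each FPKM is unknown.

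**Figure D1:**
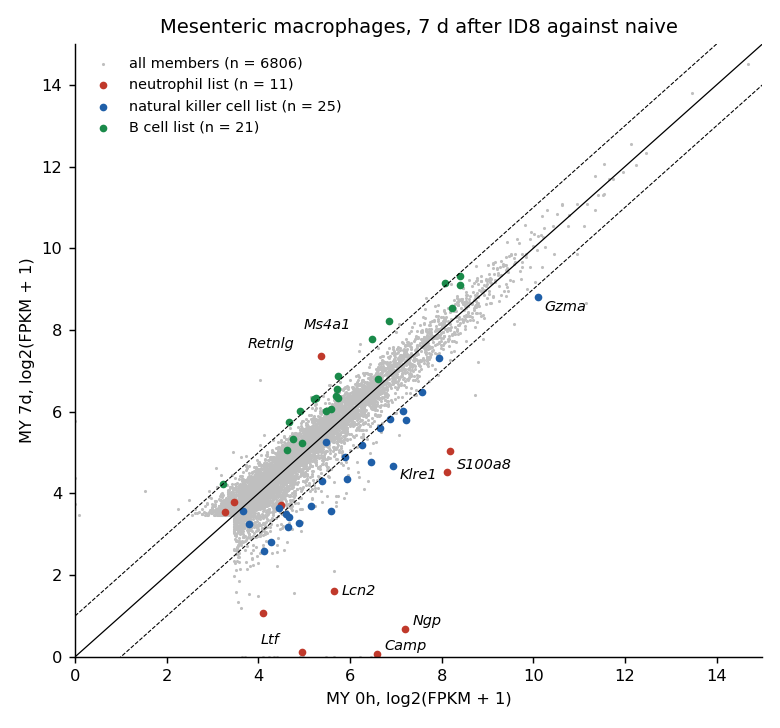
Each point is 1 gene of the 6806, with its log2(FPKM + 1) in MY 0h on the horizontal axis and in MY 7d on the vertical axis. The solid line marks equal values and the dashed lines a 2-fold difference. Genes of the neutrophil list (red) and the natural killer cell list (blue) lie mostly below the lower dashed line, and the B cell genes (green) lie above the solid line.

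Neutrophil granule genes were lower in MY 7d, and Camp and Ngp had the 2 largest falls of all genes compared. Of 25 listed neutrophil genes, 24 were in the table, 11 reached an FPKM of 10, 7 fell and 1 rose. The median difference of the 11 was -3.13, against 0.07 over all genes compared, but 5 of the 7 falls (Camp, Ngp, Ltf, Lcn2 and 1100001G20Rik) met the FPKM limit only in MY 0h and so had to differ. Over all 24 genes with no limit the median was -0.68. Camp encodes the antimicrobial peptide cathelicidin. Its FPKM was 95.7 in naive mesentery, 32.0 at 24 h and 0.0529 at 7 d, a log2 difference of -6.52 between MY 7d and MY 0h. Ngp, which encodes neutrophilic granule protein, had 147 in naive mesentery, 38.04 at 24 h and 0.608 at 7 d, also a log2 difference of -6.52. Both were near the bottom of the scale by 7 d. Ltf, the gene of the iron-binding granule protein lactoferrin, had an FPKM of 29.96, 8.84 and 0.0848 in the same order. Lcn2, which encodes the siderophore-binding lipocalin of the same granules, had 49.5, 19.3 and 2.05.

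The promoters of 4 of these genes are shown because the genes fell together and because C/EBP factors are known to drive granule genes. Each is the stretch of 250 bases before the gene start, 5′ to 3′ on the gene's strand, from RefSeq on GRCm38.p6. Capitals mark matches to the C/EBP-type letters TTNNGCAA on either strand. The positions of the sequences are chr9:109849457-109849706 on the minus strand for Camp, chr9:110419558-110419807 on the plus strand for Ngp, chr9:111019042-111019291 on the plus strand for Ltf and chr2:32387740-32387989 on the minus strand for Lcn2.
Camp: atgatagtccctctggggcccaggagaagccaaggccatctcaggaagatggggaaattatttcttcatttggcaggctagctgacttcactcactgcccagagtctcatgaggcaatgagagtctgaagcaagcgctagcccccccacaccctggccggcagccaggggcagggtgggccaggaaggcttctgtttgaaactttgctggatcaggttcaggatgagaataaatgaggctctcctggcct
Ngp: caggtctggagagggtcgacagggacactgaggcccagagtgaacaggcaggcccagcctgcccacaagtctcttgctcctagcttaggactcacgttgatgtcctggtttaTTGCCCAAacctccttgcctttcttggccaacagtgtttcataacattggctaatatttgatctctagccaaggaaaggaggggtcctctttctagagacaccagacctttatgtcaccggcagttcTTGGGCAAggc
Ltf: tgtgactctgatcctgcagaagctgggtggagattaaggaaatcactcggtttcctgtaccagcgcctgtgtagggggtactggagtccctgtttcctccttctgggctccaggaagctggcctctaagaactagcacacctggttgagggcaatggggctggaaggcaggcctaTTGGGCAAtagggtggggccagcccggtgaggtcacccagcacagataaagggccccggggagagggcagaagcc
Lcn2: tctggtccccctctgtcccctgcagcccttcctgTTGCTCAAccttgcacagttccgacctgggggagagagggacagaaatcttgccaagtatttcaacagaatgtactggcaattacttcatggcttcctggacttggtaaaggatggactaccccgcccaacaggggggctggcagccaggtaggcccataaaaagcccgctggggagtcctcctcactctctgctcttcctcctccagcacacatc
The Ngp stretch held 2 matches, those of Ltf and Lcn2 1 each, and that of Camp none. Of the 7 neutrophil genes that fell, 6 had a promoter in the table and 4 of these (Ngp, Ltf, Lcn2 and S100a9) held a match, while 10.8% of the 27025 genes with a promoter did. The motif was chosen after the values were seen, and a match is a description of letters, not a bound site.

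The genes of calprotectin, the abundant calcium-binding protein of neutrophils and monocytes, kept some signal. S100a8 had an FPKM of 288 in naive mesentery, 219 at 24 h and 32.1 at 7 d. S100a9 had 275, 156 and 22.1. They were 8.97-fold and 12.5-fold lower in MY 7d than in MY 0h, against 24.1-fold for Lcn2, while 1100001G20Rik, a gene of the same list, went from 16.1 to 1.101. Other genes of the list went both ways. Retnlg, which encodes resistin-like gamma, rose from 40.5 to 163, with 263 in MY 24h. The gelatinase gene Mmp9 had an FPKM of 10.1 and 12.7, G0s2 had 8.71 and 10.8, and the interleukin gene Il1b had 21.7 and 12.2. The early granule genes Elane and Mpo were low throughout, at 1.41 and 0.274 in MY 0h and listed at 0 in MY 7d. Summed over the 24 genes, FPKM was 1008 in naive mesentery, 845 at 24 h and 274 at 7 d. In sorted bulk samples, fewer cells of a type and less RNA per cell cannot be told apart.

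**Figure D2:**
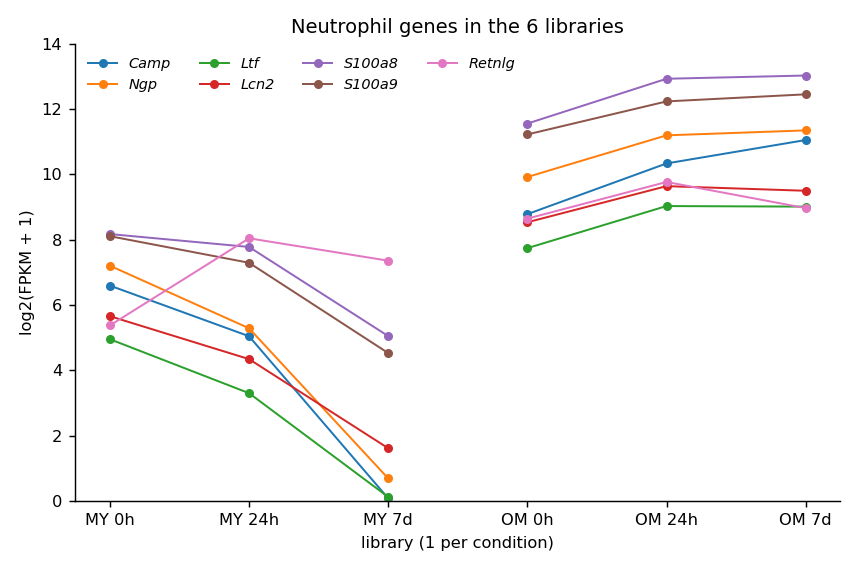
Lines join the log2(FPKM + 1) of 7 neutrophil genes in the 3 mesenteric and the 3 omental libraries, 1 library per condition. In the mesentery 6 of the 7 go down from MY 0h to MY 7d and Retnlg goes up, while in the omentum all 7 are higher in OM 7d than in OM 0h.

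Camp, Ngp and Ltf lie on chromosome 9, in the stretch chr9:109749889-110945270 of NCBIM37 (mm9, with GENCODE M1 gene models). This stretch held 9 of the genes compared. Only these 3 fell, none rose, and the others were Als2cl, Ccdc12, Dhx30, Nbeal2, Scap and Smarcc1. Coordinates of mm9 and of GRCm38.p6, the build of the promoters, are not interchangeable.

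Natural killer cell genes fell more evenly. All 25 listed genes were among those compared, all 25 had a lower value in MY 7d, and 19 fell by at least 2-fold. Of the 25, 6 met the FPKM limit only in MY 0h and so had to be lower. The median difference of the 25 genes was -1.14, and their summed FPKM was 2780 in naive mesentery, 1643 at 24 h and 1209 at 7 d. Ncr1, which encodes the activating receptor NKp46, had an FPKM of 148 in naive mesentery, 72.9 at 24 h and 54.4 at 7 d. Klrb1c, the gene of the NK1.1 antigen, had 100.4, 74.4 and 47.6. Klrd1, which encodes CD94, had 190 in MY 0h and 88.6 in MY 7d. Its partners Klrc1 and Klrc2, which encode NKG2 chains, were 2.18-fold and 2.85-fold lower. All 5 of these receptor genes still had an FPKM above 10 in MY 7d.

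The transcription factors of the lineage fell with the receptors. Eomes, which drives natural killer cell maturation, had an FPKM of 23.9 in naive mesentery, 11.4 at 24 h and 8.004 at 7 d. Tbx21, which encodes T-bet, had 75.4, 36.5 and 35.6. Both were lower in MY 24h and MY 7d than in MY 0h. The largest fall of a receptor on the list was that of Klre1, from 122 through 53.7 to 24.3, a log2 difference of -2.28.

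Ly49 receptors, encoded by the Klra genes, bind MHC class I and set the threshold for killing. All 9 Klra genes among those compared fell, with log2 differences from -3.56 to -1.45. Of these, Klra1, Klra14-ps, Klra23, Klra3, Klra4 and Klra9 met the FPKM limit only in MY 0h and so had to be lower. Klra23 fell the most, with an FPKM of 49.3 in naive mesentery, 23.1 at 24 h and 3.26 at 7 d. Klra8, the gene of the activating receptor Ly49H, had 47.1, 26.0 and 10.9. These genes are near-identical copies, so the split of fragments between them is uncertain. Of the 11 Klrb, Klrc, Klrd, Klre, Klri and Klrk genes compared, 8 fell. The genes sit together in the natural killer gene complex, at chr6:128559245-131197380 of mm9 from Klrb1a to Klra2. Of its 28 genes compared, 16 (57.1%) fell, against 2.63% of all genes compared, and none rose, with a median of -1.06. All of the 16 but 2310001H17Rik are receptor genes already counted above. Among the 16, Klra1, Klra23, Klra3, Klra4, Klra9 and Klri2 met the limit only in MY 0h and so had to be lower. The 12 genes of the complex that did not fall by 2-fold included Cd69, Clec7a, Clec12a, Klrb1b, Klri1 and Klrk1.

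Of 15 cytotoxic granule and effector genes compared, 8 fell, none rose by 2-fold and 3 had a higher value in MY 7d. The median was -1.05, or -0.64 over all 19 listed genes with no limit on FPKM. Of the 15, 2 (Ifng and Ccl3) met the limit only in MY 0h and so had to be lower. The 3 higher genes, Srgn, Lamp1 and Ctsc, serve the granules of many cell types and had log2 differences of 0.45, 0.38 and 0.28. Gzma, which encodes a tryptase-like granzyme, had an FPKM of 1092 in naive mesentery, 667 at 24 h and 449 at 7 d, a 2.43-fold difference. Gzmb, which encodes the caspase-activating granzyme B, had 142, 104.9 and 64.0. Prf1, which encodes the pore-forming perforin, had 116, 74.95 and 55.4. For all 3 the value in MY 24h lay between the others. The death ligand gene Fasl was 2.28-fold lower in MY 7d and the interferon gene Ifng 2.60-fold lower, at 3.92 against 10.2. Nkg7, a granule membrane gene with an FPKM of 1050 in MY 0h and 574 in MY 7d, was 1.83-fold lower. The natural killer and cytotoxic lists together held 36 of the genes compared, and 23 of them made up 12.8% of all falls.

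The promoters of the 3 granule effectors are shown as those of a group that fell together, in the same form as above. Capitals mark the Runx core letters TGTGGT on either strand, since Runx factors are known to act in cytotoxic lymphocytes. Their positions on GRCm38.p6 are chr13:113100982-113101231 on the minus strand for Gzma, chr14:56262335-56262584 on the minus strand for Gzmb and chr10:61297586-61297835 on the plus strand for Prf1.
Gzma: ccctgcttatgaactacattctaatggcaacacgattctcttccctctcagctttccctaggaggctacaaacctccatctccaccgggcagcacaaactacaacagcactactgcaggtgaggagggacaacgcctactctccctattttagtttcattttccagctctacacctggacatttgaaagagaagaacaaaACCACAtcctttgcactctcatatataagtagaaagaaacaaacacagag
Gzmb: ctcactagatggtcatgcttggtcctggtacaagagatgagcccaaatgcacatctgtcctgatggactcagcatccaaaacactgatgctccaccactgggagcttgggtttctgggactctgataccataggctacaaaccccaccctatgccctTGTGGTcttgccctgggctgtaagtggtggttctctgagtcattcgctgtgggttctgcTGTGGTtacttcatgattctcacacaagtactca
Prf1: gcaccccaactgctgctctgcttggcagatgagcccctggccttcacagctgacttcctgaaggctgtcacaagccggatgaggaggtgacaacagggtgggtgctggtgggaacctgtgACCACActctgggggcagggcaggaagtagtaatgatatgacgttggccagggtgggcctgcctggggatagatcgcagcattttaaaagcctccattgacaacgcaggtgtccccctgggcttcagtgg
Of the 6 motifs searched, this was the one most often found in the 17 natural killer genes that fell and had a promoter, with 9 of 17 holding it against 15.9% of all genes with a promoter. The T-box letters GGTGTGA were in 1 of the 17 (Xcl1) against 3.84%, the C/EBP letters in 4, the interferon response motif in 2 (Eomes and Gzma) against 3.46%, and the ETS letters AGGAAGTG in 1 (Xcl1) against 3.62%. The octamer ATGCAAAT was in none of them, nor in any of the 5 rising B cell genes with a promoter, against 1.81%. Matches of different motifs were counted separately and may overlap, the motifs were chosen after the values were seen, and nothing about a factor follows from them.

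Several chemokine ligand genes were among the falls. Of 12 chemokine ligand genes compared, 5 fell and 1 rose, and the median was -0.90, or -0.14 over all 37 listed genes with no limit on FPKM. Of the 12, 3 met the limit only in MY 0h, Ccl3 among them, and so had to be lower. Ccl3, Ccl4 and Ccl5 are also among the 8 falls of the cytotoxic list. Ccl5, which attracts T cells and monocytes, had an FPKM of 1969 in naive mesentery, 1696 at 24 h and 928 at 7 d. Ccl4 had 77.9, 53.4 and 16.4, a 4.76-fold difference, and its neighbor Ccl3 was 2.73-fold lower. Xcl1, which attracts cross-presenting dendritic cells and is made by natural killer cells, had 87.3, 35.2 and 26.1. These genes moved with the natural killer cell list, whose part in their fall was not tested. In the omentum Ncr1 had an FPKM of 26.2 in OM 0h and 0.61 in OM 24h. Between the same libraries Ccl4 went from 89.2 to 124 and Ccl3 from 34.3 to 74.4. Ccl5 went from 345 to 135 and Xcl1 from 30.8 to 0.53. These omental values are of another tissue and time, with 1 library per condition, and their bearing on the mesenteric falls was not tested. Cxcl10, an interferon-induced ligand of Cxcr3, had an FPKM of 35.1 in naive mesentery, 21.2 at 24 h and 13.9 at 7 d. The ligand that rose was Ccl6, a Ccr1 ligand of myeloid cells, with 34.3, 282 and 81.7. Its level at 7 d was 2.38-fold that of MY 0h and below that of MY 24h. Ccl22, a ligand of Ccr4 made by dendritic cells, had 199 in MY 0h and 256 in MY 7d.

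B cell genes made up the largest group of rises in the lists examined. Of 21 B cell genes compared, 8 rose, none fell and all 21 had a higher value in MY 7d, with a median of 0.83. The 8 genes are 22.9% of all rises. Ms4a1, which encodes CD20, had an FPKM of 88.8 in naive mesentery, 47.1 at 24 h and 219 at 7 d. Cd79b, a signaling chain of the B cell receptor, had 270, 200.3 and 568, and Cxcr5, the receptor that brings B cells into follicles, had 24.2, 14.1 and 52.9. For these genes MY 24h was the lowest of the 3 libraries. Faim3, which encodes the IgM Fc receptor, had 115 in naive mesentery, 74.5 at 24 h and 297 at 7 d, the largest log2 difference of the list at 1.36. The BAFF receptor gene Tnfrsf13c, the adaptor gene Bank1, the Fc receptor-like gene Fcrla and the transcription factor gene Spib were 2.14-fold to 2.24-fold higher. Summed over the 24 listed genes, FPKM was 2071 in naive mesentery, 1347 at 24 h and 3676 at 7 d.

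Plasma cell and T cell genes had smaller positive medians. Of 12 plasma cell genes compared none reached 2-fold, and the median was 0.43. Igj, which encodes the joining chain of IgM and IgA, had an FPKM of 428 in naive mesentery, 47.2 at 24 h and 751 at 7 d, a 1.75-fold difference between MY 7d and MY 0h. Of 24 T cell genes compared none reached 2-fold, 20 had a higher value in MY 7d, and the median was 0.39. Cd8b1, which encodes the CD8 beta chain, had 195, 118 and 284. Il7r, the interleukin-7 receptor gene of naive and memory cells, had 35.1, 55.8 and 66.8. The signaling genes Lck, Zap70 and Lat, which natural killer cells share with T cells, had log2 differences of -0.12, -0.31 and -0.40.

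**Figure D3:**
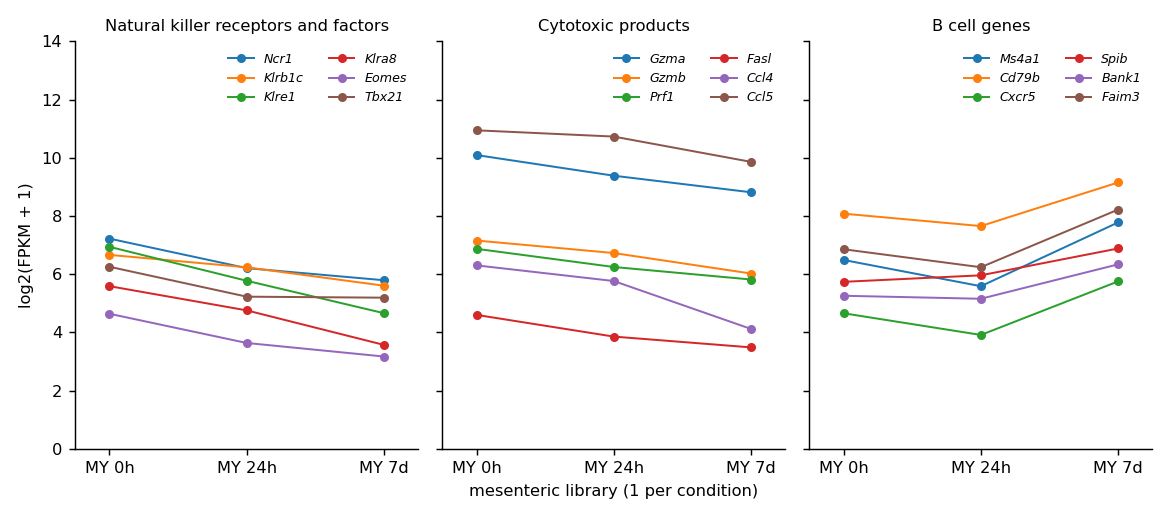
Lines join the log2(FPKM + 1) of 6 natural killer cell genes, 6 cytotoxic products and 6 B cell genes in the 3 mesenteric libraries, 1 library per condition. The natural killer and cytotoxic genes are lower in MY 7d than in MY 0h, and the B cell genes are higher.

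The macrophage genes themselves moved little. Of the 16 core macrophage genes compared, none reached 2-fold, 11 had a higher value in MY 7d, and the median was 0.11. Csf1r, the receptor for the growth factor of macrophages, had an FPKM of 121 in naive mesentery, 313 at 24 h and 192 at 7 d, and Emr1 had 20.5, 68.6 and 37.5. The complement genes C1qa, C1qb and C1qc, made by tissue macrophages, had 315, 384 and 375 in MY 0h against 315, 412 and 465 in MY 7d. All of these were highest in MY 24h. The signaling adaptor genes Fcer1g and Tyrobp, which natural killer cells also use, and the cytoskeletal gene Aif1 had log2 differences of -0.86, -0.64 and -0.80. Of 6 resident macrophage genes compared, Cbr2, a carbonyl reductase gene, fell, from 13.5 to 4.30, and the others did not reach 2-fold. Retnla, a gene of the alternative activation list that encodes resistin-like alpha, had 23.6 in naive mesentery, 221 at 24 h and 5.97 at 7 d.

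Antigen presentation genes of class II leaned up and those of class I did not. Of 12 MHC class II and loading genes compared, none reached 2-fold, 11 had a higher value in MY 7d, and the median was 0.47. Cd74, the invariant chain gene, had an FPKM of 11323 in MY 0h and 14370 in MY 7d, and H2-Ab1 had 4487 and 6002. H2-DMb2 and H2-Ob, genes of the peptide-loading proteins, were 1.73-fold and 1.60-fold higher. B cells express class II as well, and the part of the B cell genes in these values was not tested. Of the 20 listed class I genes compared, H2-Q4 fell, none rose, and the median was -0.18. Outside the list, the class I genes H2-K2, with an FPKM of 50.6 in MY 0h and 14.4 in MY 7d, and H2-Q5, with 59.4 and 26.0, fell too. These H2 genes are close copies of each other, so the split of fragments between them is uncertain. Conventional dendritic cell genes had a median of 0.28 over 19 genes with none at 2-fold.

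Mature dendritic cell genes were abundant in both libraries. Ccr7, the receptor that guides dendritic cells to lymph nodes, had an FPKM of 526 in MY 0h and 661 in MY 7d. Of 25 genes of this list compared, 2 fell, Fscn1 and Ccl5, none rose, and the median was -0.21. Fscn1, which encodes the actin-bundling protein fascin, had 759 in naive mesentery, 400 at 24 h and 280 at 7 d, a 2.71-fold difference. The activation marker Cd83 had 185 and 246, and the enzyme gene Il4i1 had 406 and 339. Fscn1 was thus apart from the other genes of the list, whose values in MY 7d and MY 0h were within 2-fold except for Ccl5.

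Several myeloid genes were among the rises. Of those named here, Alox15, Mpeg1, Adamdec1, Ctse and March1 met the FPKM limit only in MY 7d and so had to be higher. Alox15, which encodes a lipoxygenase of resident peritoneal macrophages and eosinophils, had an FPKM of 1.88 in naive mesentery, 32.6 at 24 h and 15.5 at 7 d. Mpeg1, the gene of the bactericidal pore-former perforin-2, had 9.97, 50.8 and 31.1. Adamdec1, a metalloprotease gene of gut and lymphoid macrophages, had 7.37, 33.5 and 23.5. In each of these MY 24h was the highest library. Cyp4f18, a leukotriene-metabolizing enzyme gene, had 45.9, 113 and 100.2. The complement gene C6 had 11.3, 42.7 and 28.8. Ctse, which encodes the endosomal protease cathepsin E, had 3.75, 5.68 and 11.3 and was the only 1 of 27 lysosomal genes compared to rise, although 25 of the 27 had a higher value, with a median of 0.30. March1, which encodes a ubiquitin ligase that removes class II from the surface, had 8.08, 14.8 and 20.9.

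Some single genes of other functions rose as well. Rbm3 had an FPKM of 73.7 in naive mesentery, 172 at 24 h and 200.4 at 7 d, and Cirbp had 72.0, 236 and 179. Both encode RNA-binding proteins known to be induced by mild cold. Scd1, a fatty acid desaturase gene used here as an adipocyte marker, had 16.4, 12.9 and 41.9. Of 19 adipocyte genes 4 were compared, and their list summed to 125 in naive mesentery, 189.8 at 24 h and 170.3 at 7 d. Pdk1, a kinase gene that restrains pyruvate entry into mitochondria, had 15.5, 30.1 and 35.3 and was the only glycolysis gene of 21 to rise. Ccnb1, the mitotic cyclin gene, had 7.56, 3.12 and 16.7 and was the only 1 of 32 cell cycle genes to rise, with a list median of 0.21. Tpsb2, which encodes a mast cell tryptase, was listed at 0 in MY 0h and had 7.09 in MY 24h and 19.9 in MY 7d. Both Ccnb1 and Tpsb2 met the FPKM limit only in MY 7d and so had to be higher.

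Interferon-stimulated genes leaned down in MY 7d. Of 24 type I interferon response genes compared, 3 fell, 21 had a lower value, and the median was -0.37. Of the 24, 5 met the FPKM limit only in MY 0h, Mx1 among them, and so had to be lower. Over all 37 listed genes with no limit the median was -0.51. Mx1, which encodes an antiviral GTPase, had an FPKM of 22.7 in naive mesentery, 30.3 at 24 h and 5.10 at 7 d. Isg15, which encodes a ubiquitin-like modifier, had 69.6, 41.5 and 26.1, and the third gene was Cxcl10. Irf7, the regulator of the response, had 74.5 and 45.9. The interferon-gamma response list had a median of -0.01 over 21 genes, and Cxcl10 alone of them fell.

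The broad cellular machinery shifted by small amounts. Of 79 ribosomal protein genes, none reached 2-fold, 65 had a higher value in MY 7d, and the median was 0.23. Rps19 had an FPKM of 897 in MY 0h and 1525 in MY 7d, and Rps18 had 683 and 1129. By FPKM the largest gain was that of Cd74, followed by H2-Ab1, H2-Aa and Actb, and ribosomal protein genes took 5 of the 10 largest. Oxidative phosphorylation genes had a median of -0.09 over 75 genes. Monocyte genes had a median of -0.09 over 15 genes, and lipid and scavenger genes had 0.17 over 16, with none at 2-fold in either list. Genes of the immediate early and dissociation response had a median of 0.05 over 22 genes with none at 2-fold. The largest loss by FPKM was that of Tmsb4x, a thymosin gene that binds actin monomers, from 26435 to 23416, which is a 1.13-fold difference. Cebpa, which encodes a myeloid transcription factor, was the only 1 of 26 lineage factor genes compared to fall, from 25.8 to 11.1.

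**Figure D4:**
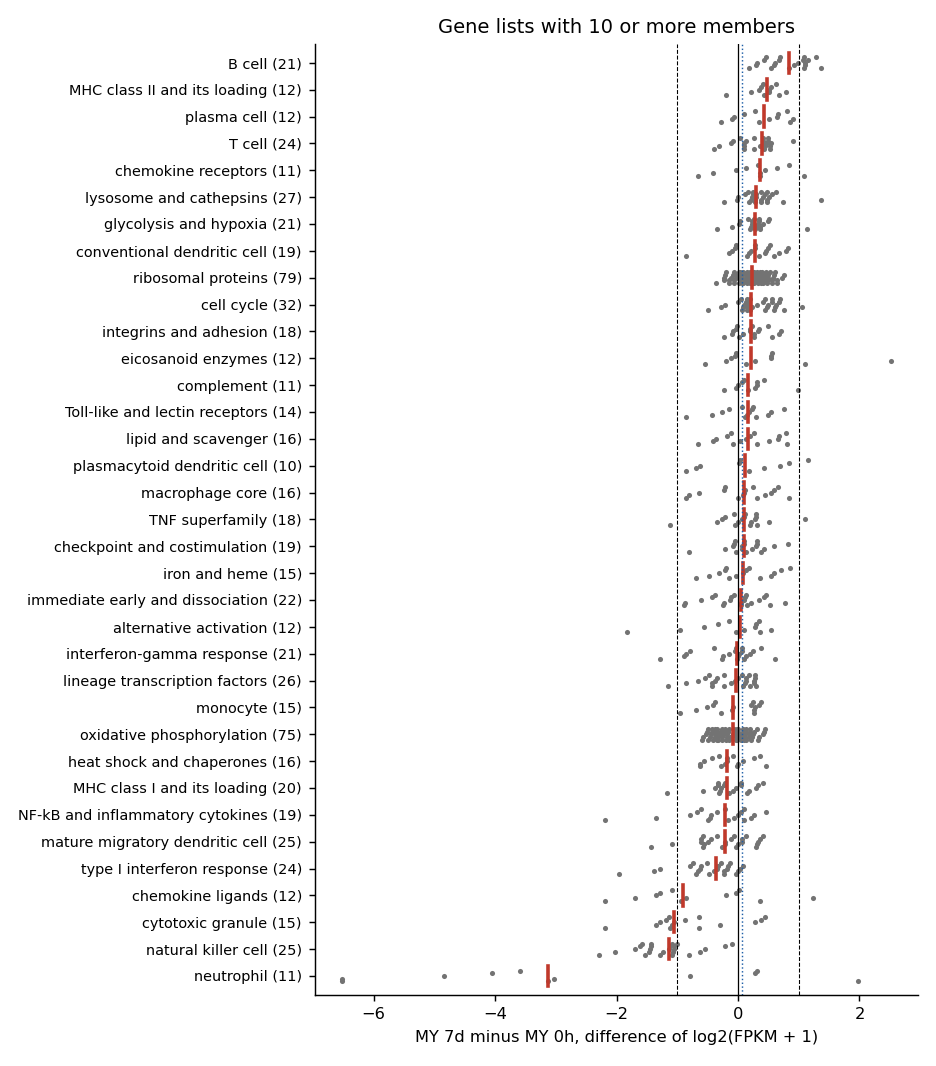
Each gray point is 1 gene of a list, placed by its MY 7d minus MY 0h difference of log2(FPKM + 1), and the red bar is the median of the list. Only lists with 10 or more genes compared are drawn, with that number in parentheses. The dotted blue line is the median of all genes compared (0.07) and the dashed lines are 2-fold differences. Among the lists drawn the B cell list has the highest median, 0.83, and the neutrophil list the lowest, -3.13. With no limit on FPKM the neutrophil median is -0.68 and that of the natural killer cell list stays at -1.14.

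Most falls were outside the lists. The 50 lists held 39 of the 179 falls (21.8%) and 19 of the 35 rises (54.3%). They covered 682 of the 6806 genes compared, and 5.72% of the 682 fell and 2.79% rose. Over all genes compared the shares were 2.63% and 0.514%. Lars2, the mitochondrial leucyl-tRNA synthetase gene, had an FPKM of 420 in naive mesentery, 348 at 24 h and 83.6 at 7 d. Neat1, a nuclear long noncoding RNA, had 83.3, 94.7 and 18.6. Sap25, which encodes a protein of the Sin3 corepressor complex, had 26.4, 22.7 and 1.94, and Eml2, a microtubule-associated protein gene, had 11.4, 1.80 and 1.30. In Sap25, Neat1 and Lars2 the drop lay between MY 24h and MY 7d, whereas in Eml2 it lay before MY 24h. Of the 156 falling genes with an annotation and a name other than Mir or Snor, 17 (10.9%) were not protein coding, against 71 (1.11%) of the 6385 such genes compared. Genes named Mir or Snor, whose transcripts are short, made up 20 of the genes compared, of which 14 fell and 3 rose. All of the 14 but Mir6236 and Snord35b met the FPKM limit only in MY 0h and so had to be lower. All 3 rises met it only in MY 7d and so had to be higher. Without them, 165 genes fell and 32 rose.

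Hemoglobin genes did not move together. Hba-a1 had an FPKM of 30.6 in naive mesentery, 0.596 at 24 h and 0.0353 at 7 d. Hba-a2 had 15.3, 201 and 108, and Hbb-b1 had 46.5, 202 and 98.8. Hba-a1 and Hba-a2 are near-identical copies, so the split of fragments between them is uncertain.

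The omentum gave the same contrast in libraries of its own, although the labels do not say whether omental and mesenteric tissue came from the same mice. In OM 7d against OM 0h, 8.44% of 7099 genes rose and 2.38% fell, so the omental change was mostly upward. Of the 6207 genes that passed the FPKM limit in both tissues, 28 (0.451%) rose and 111 (1.79%) fell in the mesentery, and 190 (3.06%) rose and 109 (1.76%) fell in the omentum. The genes that fell in both numbered 28, which is 25.2% of the mesenteric falls and 25.7% of the omental falls. Those that rose in both numbered 6, which is 21.4% of the mesenteric and 3.16% of the omental rises, and they were Alox15, Mpeg1, Tmem9, Cirbp, Hbb-b1 and Pcyox1. Lars2 was among the shared falls, with log2 differences of -2.31 in the mesentery and -2.53 in the omentum. Mir6236, 1 of the genes with short transcripts, had -2.50 and -2.68. Its FPKM was 2271 in MY 0h and 401 in MY 7d, and 4195 in OM 0h and 653 in OM 7d. Retnla was another shared fall, with -1.82 and -3.56, and its omental FPKM was 3681 in OM 0h and 311 in OM 7d. Was and Actr2, actin-regulating genes, Epn1, an endocytic adaptor gene, and Gzma fell in both tissues too.

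A smaller set went opposite ways. Of the mesenteric falls, 11 (9.91%) were rises in the omentum, and 6 of these genes were neutrophil genes. The FPKM of Camp was 440.2 in OM 0h and 2128 in OM 7d, and that of S100a8 was 3020 and 8381, so the omental levels exceeded the mesenteric ones in every library. Cxcl10 had 12.1 in OM 0h and 116 in OM 7d. Only Faim3 rose in the mesentery and fell in the omentum, where it had 474 and 165. The B cell list as a whole had an omental median of -0.78 against 0.83 in the mesentery, and the natural killer cell list had -0.47 against -1.14. The difference between the tissues was not tested, with 1 library per condition.

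**Figure D5:**
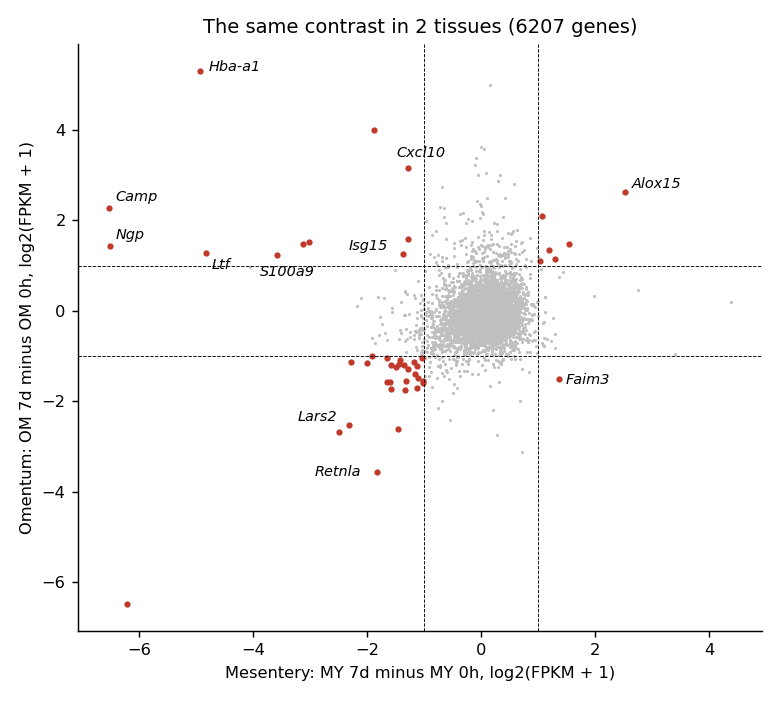
Each point is 1 of the 6207 genes that passed the FPKM limit in both tissues, with the MY 7d minus MY 0h difference of log2(FPKM + 1) on the horizontal axis and the OM 7d minus OM 0h difference on the vertical axis. Dashed lines mark 2-fold differences and red points are genes past them in both tissues. Camp, Ngp, Ltf and S100a9 lie at the upper left, lower in the mesentery and higher in the omentum, and Lars2 and Retnla lie at the lower left.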

How the data were processed

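Macrophages were sorted from omental and mesenteric tissue at 3 time points and 1 library per condition was sequenced. The authors checked reads with FastQC 0.11.4, aligned them to mm9 with STAR 2.4.2a and computed FPKM with Cufflinks, and they deposited 1 table of FPKM by gene symbol. Read counts and the authors' DESeq2 fold changes were not used here. FPKM fix neither depth nor counting error, so no interval is given.

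From the FPKM, log2(FPKM + 1) was compared between MY 7d and MY 0h in the 6806 genes that reached 10 in either, and differences of at least 2-fold were counted. Scripts ran in Python 3.11.15 (pandas 2.3.3, numpy 2.4.6, matplotlib 3.10.9). No test was made, since each condition has 1 library. The counting was tested on simulated data. The 6806 genes and the 50 gene lists were chosen with earlier results of these data known. Of the table's symbols, 20711 matched 1 gene of GENCODE M1 on NCBIM37.

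Named genes were the 15 largest rises and falls on the log2 scale without Mir and Snor genes, the 10 largest in FPKM, list members past 2-fold or else the 4 largest, the sort markers, up to 10 genes past 2-fold in both tissues per direction pair, and those next to the limits. Genes named outside this rule, such as Cd3e, Cd79a, H2-K2, H2-Q5, Srgn, Lyz2, Ccr7, Irf7, Mmp9 and Neat1, and the motifs, the chromosome stretches and the families by symbol were chosen after their values were seen. The alternatives were pseudocounts of 0.1 and 5, other filters, 2 rescalings and leaving out Mir and Snor genes.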

Additional observations from a re-analysis of the deposited data

Results flagged for a closer look

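The genes below, Mir and Snor genes left out, moved at least 2-fold in opposite directions in the mesentery and the omentum, as MY 7d minus MY 0h and OM 7d minus OM 0h on the log2(FPKM + 1) scale. With 1 library per condition the difference between the tissues was not tested. Neutrophil genes account for 6 of them. Camp had -6.52 in the mesentery and 2.27 in the omentum. Ngp had -6.52 and 1.43, and Ltf had -4.83 and 1.27. S100a9 had -3.58 and 1.23, and S100a8 had -3.13 and 1.47. 1100001G20Rik had -3.03 and 1.53. The interferon-stimulated genes Cxcl10 and Isg15 had -1.28 and -1.38 in the mesentery and 3.16 and 1.25 in the omentum. Arl4d, which encodes a small GTPase, had -1.28 and 1.58. Hba-a1 had -4.93 and 5.31, and its near-identical copy Hba-a2 had 2.75 and 0.46, so the value of Hba-a1 alone is uncertain. Faim3 had 1.36 in the mesentery and -1.51 in the omentum.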

How the results depend on the processing

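No paired analysis was possible because there is only 1 library per condition, and for the same reason none could be left out. A count was taken as unchanged within 1.5 times and a log2 value within 0.58. Of 1199 recomputed values 1149 stayed within these bounds and 50 moved. The medians of 14 of the 48 lists changed sign under some setting, all of them 0.62 or less in size. The chemokine ligand and cytotoxic medians of -0.90 and -1.05 were -0.14 and -0.64 with no filter. The 35 rises became 65 with a filter at an FPKM of 1 or with none, and 21 with a filter at 30. The 179 falls became 299 with a filter at 1 or with none, 75 with a filter at 30, and 109 with a pseudocount of 5. Rescaling to an equal sum gave 49 rises and 258 falls, and rescaling by the median ratio gave 29 and 203. Genes past 2-fold in the same direction in both tissues went from 34 to 15 with a pseudocount of 5 and to 14 with a filter at 30. Those in opposite directions went from 12 to 35 with a filter at 1 or with none, and to 22 after rescaling to an equal sum. The neutrophil median of -3.13 was -1.18 with a filter at 1, -0.68 with none and -3.81 with a filter at 30, since lower filters admit list members near 0. Of 724 values of named genes 27 moved, 14 of them with a pseudocount of 5, and 0 genes past 2-fold changed sign. The depth behind low values is not given by the FPKM.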

Other observations

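Genes of RNA processing that no list covered were examined by symbol after the falls had been seen, as MY 7d minus MY 0h on the log2(FPKM + 1) scale. Of 13 small nucleolar RNA host genes in the table (Snhg genes and Gas5), 6 were compared. Of these 6, 4 fell (Gas5, Snhg1, Snhg5 and Snhg9), with a median of -1.25. All 4 met the FPKM limit only in MY 0h and so had to be lower in MY 7d, and no median without the limit was taken. Gas5 had an FPKM of 24.6 in MY 0h and 8.70 in MY 7d. Of the 3 Luc7l splicing genes compared, Luc7l2 and Luc7l3 fell, with a family median of -1.02, and Luc7l2 met the limit only in MY 0h. U2af1, which encodes a splice site recognition factor, had an FPKM of 124 in MY 0h and 61.1 in MY 7d. Of 18 Hnrnp genes compared 2 fell, with a median of -0.20, and of 10 Srsf genes none fell, with a median of -0.21. Another RNA-binding gene that fell was Sfpq, with 60.7 and 20.9.

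Of 7 genes of the Arp2/3 complex, which nucleates branched actin, Arpc3 fell, from 478 to 217, and the median of the 7 was 0.05. Cotl1, which encodes an actin-binding protein, rose from 201 to 439.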
